A study of Mus musculus with 4 samples.

Results

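Immediate early genes were followed across the neuron subtypes and satellite glial cells (SGCs) of mouse dorsal root ganglia (DRGs), with and without nerve injury. The group is a list of 10 symbols, *Fos*, *Fosb*, *Junb*, *Jund*, *Egr1*, *Ier2*, *Arc*, *Npas4*, *Nr4a1*, and *Btg2*, and all 10 were found once each among the 31053 genes of the count matrices. The libraries hold GFP+ cells sorted from bilateral L4-5 DRGs of heterozygous PirtEGFPf mice, 7 to 8 weeks old and on a C57BL/6 background, in which a farnesylated EGFP stands in place of the *Pirt* coding sequence under the endogenous *Pirt* promoter, so every group carries that allele. Sham surgery or chronic constriction injury (CCI) was done on both sciatic nerves, and 7 days later 1 library was made per sex and surgery (4 in all), each from a pool of 5 mice. The male and the female pool of a surgery were its 2 replicates, so a sex difference adds to their spread and the spread between mice was not measured. Since male and female littermates received one and the same surgery, litter and surgery cannot be told apart.

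Immediate early genes are transcribed within minutes of a stimulus from factors already present in the cell, without new protein synthesis. *Fos*, *Fosb*, *Junb*, and *Jund* encode subunits of the dimeric AP-1 transcription factor, *Egr1* a zinc finger factor, *Nr4a1* an orphan nuclear receptor, and *Npas4* a factor that in neurons depends on calcium influx. *Arc* encodes a synaptic effector, *Btg2* an antiproliferative cofactor, and *Ier2* a nuclear protein. Several of them, such as *Fos*, are widely used as markers of recent neuronal activity, and several are also known to be transcribed while tissue is being dissociated. All 4 libraries went through the same enzymatic digestion before sorting and no undissociated tissue was measured, so RNA present in the ganglion and RNA made during digestion cannot be told apart in any level below.

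The sequence just before the start site of 7 of the genes was found in RefSeq (GRCm38.p6), and 4 are shown. *Fos* and *Fosb* had the most alike levels, and *Btg2* differed most between subtypes among the abundant members. *Nr4a1* had the highest Pearson's r with satellite glia transcripts over neuronal clusters. Each is the 250 bases before the start, 5′ to 3′ on the coding strand. Capitals mark TGACG on either strand, the short form of the cAMP response element, and TGACGTCA, its full form, which contains TGACG on both strands.
Fos, chr12:85473640-85473889, plus strand: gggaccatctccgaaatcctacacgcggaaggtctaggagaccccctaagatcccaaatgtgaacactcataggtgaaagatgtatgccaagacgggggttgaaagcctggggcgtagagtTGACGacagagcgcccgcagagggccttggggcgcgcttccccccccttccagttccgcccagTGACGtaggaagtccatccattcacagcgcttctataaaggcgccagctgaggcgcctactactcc
Fosb, chr7:19310046-19310295, minus strand: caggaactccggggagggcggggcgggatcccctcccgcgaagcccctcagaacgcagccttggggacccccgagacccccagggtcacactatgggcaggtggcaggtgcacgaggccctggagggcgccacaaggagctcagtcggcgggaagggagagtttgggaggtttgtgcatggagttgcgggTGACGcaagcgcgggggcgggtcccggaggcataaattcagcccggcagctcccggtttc
Btg2, chr1:134079156-134079405, minus strand: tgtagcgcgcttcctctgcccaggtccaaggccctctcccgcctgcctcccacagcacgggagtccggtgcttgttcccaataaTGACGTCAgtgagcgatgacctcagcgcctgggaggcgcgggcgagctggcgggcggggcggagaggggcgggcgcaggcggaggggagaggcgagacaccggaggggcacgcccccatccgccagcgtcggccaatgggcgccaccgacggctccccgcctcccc
Nr4a1, chr15:101266596-101266845, plus strand: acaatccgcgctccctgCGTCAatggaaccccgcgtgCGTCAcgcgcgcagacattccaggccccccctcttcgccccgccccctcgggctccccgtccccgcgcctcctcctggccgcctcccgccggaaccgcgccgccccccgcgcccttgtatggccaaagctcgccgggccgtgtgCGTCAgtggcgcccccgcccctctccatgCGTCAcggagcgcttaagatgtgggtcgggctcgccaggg
The short form occurred in 6 of these 7 windows, in *Fos* at positions -129 and -66 from the start, in *Fosb* at -60, and 4 times in *Nr4a1*, and among 32851 windows of the same length 17.8% held it. *Jund* had no match, and its RefSeq start lies before the start of the gene in the GENCODE annotation. The full element was found in *Btg2* alone of the 7, at -166, against 1.55% of all windows. AP-1 sites (TGACTCA, 4.46% of windows) and CArG boxes (1.47%) were found in none of the 7 windows. These matches describe letters and no binding was measured.

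As a share of UMIs, all genes but *Jund* and *Npas4* were far higher in SGC-like cells than in neurons, in each of the 4 libraries. Levels are CPM, the UMIs of a gene per 1000000 UMIs summed over a group of cells, and wherever 4 levels follow each other the sham libraries come first (Male-Sham, then Female-Sham) and the CCI libraries next (Male-CCI, then Female-CCI). *Fos* stood at 2796, 4338, 2085, and 3040 CPM in SGC-like cells and at 137, 173, 98.7, and 95.8 CPM in neurons, which is 20.4 to 31.7 times as high. *Nr4a1* was 28.5 to 45.8 times, *Egr1* 13.6 to 21.3 times, *Ier2* 10.4 to 17.3 times, *Fosb* 10.2 to 19.3 times, and *Arc* 8.57 to 34.2 times as high in SGC-like cells. The ratio was lower for *Junb*, at 5.93 to 8.38, and for *Btg2*, at 2.98 to 5.09. *Jund*, known for its steady expression in many tissues, was close to even, at 958, 1065, 668, and 870 CPM in SGC-like cells against 612, 629, 668, and 672 CPM in neurons.

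*Npas4* was hardly found in SGC-like cells. A single *Npas4* UMI was found in 581 SGC-like cells, in Male-Sham, whereas neurons held 372, 648, 212, and 238 UMIs, or 2.29, 3.42, 1.30, and 1.49 CPM. SGC-like cells were few and shallow, 190, 150, 130, and 111 cells with medians of 4189 to 5175 UMIs, so that 3 UMIs in a library correspond to 2.65 to 5.25 CPM, in each library more than the level of neurons. A lower *Npas4* level in SGC-like cells was thus not detectable in a single library at this depth, and the count pooled over the libraries was not tested.

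**Figure D1:**
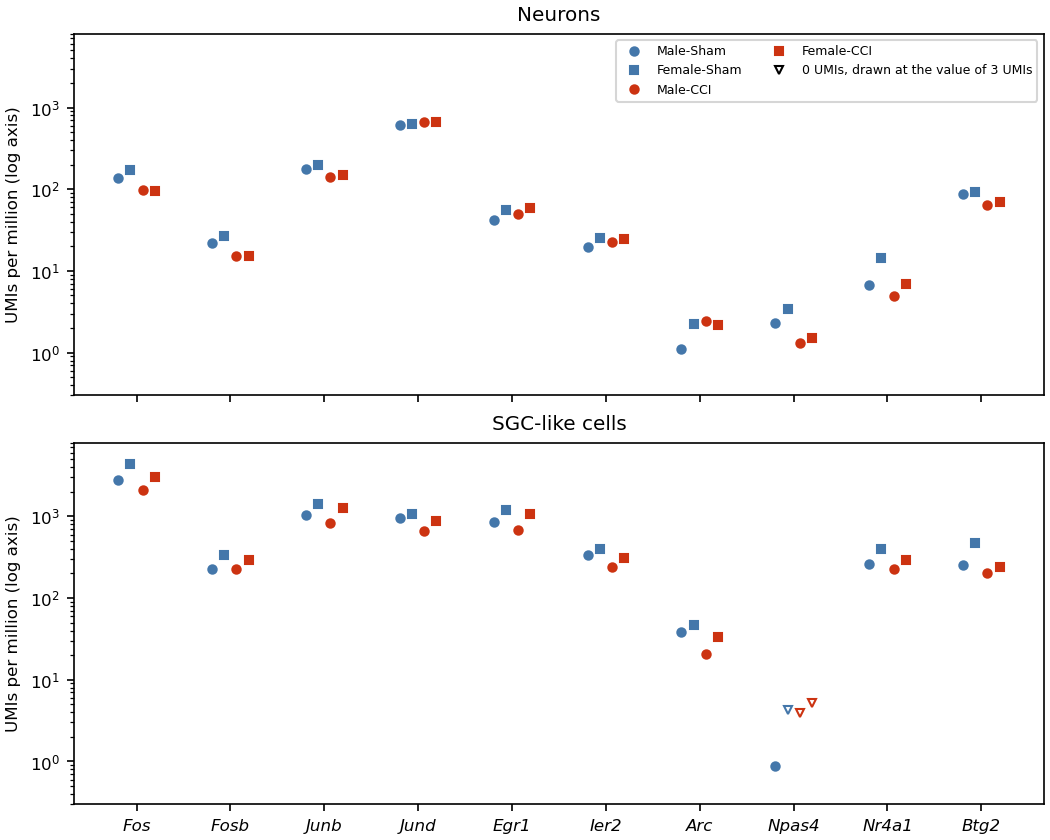
Level of each gene (CPM, log axis) in neurons, above, and SGC-like cells, below, with 1 point per library. Nearly all points lie higher in SGC-like cells (*Fos* 2085 to 4338 against 95.8 to 173 CPM), *Jund* is about level, and *Npas4* has no UMI in 3 of the SGC-like sums.

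The share of cells with a *Fos* UMI showed the same contrast once each cell was thinned to 2000 UMIs. It was 89.5%, 92.7%, 76.9%, and 88.3% of SGC-like cells and 24.0%, 26.5%, 18.9%, and 18.1% of neurons. Before thinning, with neurons at medians of 32490 to 56457 UMIs, the shares were 87.7% to 97.4% and 67.3% to 74.2%. The lowest share after thinning among SGC-like cells, in Male-CCI, had an exact 95% interval of 68.7% to 83.9%, which covers counting error only.

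The SGC-like cluster carried the transcripts that define these cells. All 10 satellite glia transcripts of a fixed list were detected in each library, at 126751 to 159314 CPM in sum, and *Tubb3*, a neuronal tubulin, was at 0.0460 to 0.0797 of its neuronal level. The cluster was not pure. Immune transcripts, 8 on the list, summed to 602, 277, 2449, and 691 CPM, Schwann cell transcripts to 89.9 to 99.9 CPM, with *Pmp2* at 0 in 3 libraries, and fibroblast and endothelial transcripts to 409 to 616 CPM. Their part in the levels of the immediate early genes was not tested.

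Among the named classes of neurons each gene had its highest mean level in a class of peptidergic (PEP) nociceptors. The other classes were non-peptidergic (NP) nociceptors, large myelinated neurons (NF), and C-fibre low-threshold mechanoreceptors (cLTMR). Neuronal clusters led by *Ly6a* (413 cells) and by *Rxfp1* and *Calb1* (269 cells) stayed unnamed and are in no class. Pooled over the libraries, *Egr1* was at 113 CPM in the first and *Arc* at 3.63 CPM in the second. Both were above the means of PEP5-like neurons, 98.3 and 3.43 CPM. Clusters were named by marker genes without using the immediate early genes, which were also left out of the clustering. Over the 4 libraries *Fos* averaged 317 ± 57.9 CPM (SD, n = 4) in PEP3/4-like, 284 ± 69.4 in PEP5-like, 212 ± 37.9 in PEP2-like, and 138 ± 32.1 in PEP1-like neurons. All 6 other named subtypes and the CCI-induced (CCI-ind) clusters lay between 31.5 and 54.1 CPM on average, and each overlapped its neighbour in that order. The unnamed clusters were higher, with *Fos* at 118 CPM in the *Ly6a* cluster and 234 CPM in the *Rxfp1* cluster, pooled over the libraries. The *Ly6a* cluster held the injury marker *Sprr1a* at 3215 CPM and is not part of CCI-ind. PEP3/4-, PEP5-, and PEP2-like neurons overlapped in turn as well, whereas the lowest PEP2-like library, at 174 CPM, was above the highest PEP1-like library, at 165 CPM.

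*Fosb* followed *Fos*. It averaged 52.8 ± 6.35 CPM (SD, n = 4) in PEP3/4-like neurons and 4.52 ± 2.37 CPM in cLTMR-like neurons, the lowest class for both genes. *Junb* separated PEP3/4-like neurons from the other named classes, at 381 to 463 CPM against at most 276 CPM in the next class, PEP2-like. It was lowest in NF1-like neurons, at 28.1 ± 2.24 CPM (SD, n = 4), below every library of the cLTMR-like class above it.

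*Btg2* had a steeper pattern than *Fos*, with high levels in PEP3/4- and PEP2-like neurons alone. It stood at 289, 273, 276, and 252 CPM in PEP3/4-like neurons and averaged 226 ± 30.6 CPM (SD, n = 4) in PEP2-like neurons. The next class, PEP1-like, averaged 76.9 ± 7.29 CPM without overlap, and the lowest, NP2-like, averaged 6.70 ± 1.02 CPM, so the highest neuronal class was 40.6 times the lowest. PEP5-like neurons, high in *Fos*, averaged 46.1 ± 4.26 CPM of *Btg2*. In PEP3/4-like neurons the level of *Btg2* was about that of SGC-like cells, whose libraries ranged from 205 to 471 CPM.

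*Egr1* and *Ier2* were also highest in peptidergic classes but separated them less. *Egr1* averaged 98.3 ± 12.1 CPM in PEP5-like, 92.7 ± 16.9 in PEP3/4-like, and 82.5 ± 13.5 in PEP2-like neurons (SD, n = 4), which overlapped, and 10.2 ± 3.10 CPM in NP2-like neurons. *Ier2* averaged 34.5 ± 6.20 CPM in PEP2-like, 25.7 in NP1-like, 24.4 in PEP1-like, and 5.22 ± 0.802 CPM in NF1-like neurons. *Nr4a1* ranged from 16.6 ± 7.44 CPM in PEP3/4-like to 2.56 ± 1.03 CPM in NP2-like neurons, with overlap at every step of the order. Pooled over the libraries, it was at 46.8 CPM in 1 PEP3/4-like cluster, rich in glial transcripts, and at 7.21 CPM in the others. *Jund* was broad, between 915 ± 47.8 CPM in PEP3/4-like and 444 ± 54.6 CPM in NP2-like neurons (SD, n = 4), and lower still in NF1-like neurons, at 235 ± 23.5 CPM without overlap. NP1-like neurons, at 756 CPM of *Jund* on average, stood above PEP1- and PEP5-like neurons at 684 and 568 CPM.

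*Npas4* was scarce, and as a whole class PEP3/4-like neurons stood apart from the other named classes. PEP3/4-like neurons held 6.86, 11.2, 6.94, and 8.63 CPM, from 90 to 398 UMIs per library. No other named class reached that level in any library, and PEP5-like neurons, the next, ranged from 1.97 to 4.84 CPM. Single clusters did not separate in this way. Pooled over the libraries, the PEP5-like cluster led by *Pnoc* (264 cells) held 9.06 CPM. The PEP5-like clusters led by *Nkx6-2* and *Penk* held 3.89 and 1.30 CPM, and the PEP3/4-like clusters 7.74, 8.05, and 11.2 CPM. NP2- and NP3-like neurons averaged 0.201 and 0.0809 CPM, and the CCI-ind clusters 0.0762 CPM, from 8 UMIs in 2386 cells. The unnamed *Ly6a* cluster, not counted there, held 0.551 CPM pooled over the libraries. *Arc* was as scarce, with PEP5-like neurons at 3.43 ± 1.14 CPM and NF1-like neurons at 3.02 ± 0.672 CPM (SD, n = 4), and NP2-like neurons at 0.0973 CPM.

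**Figure D2:**
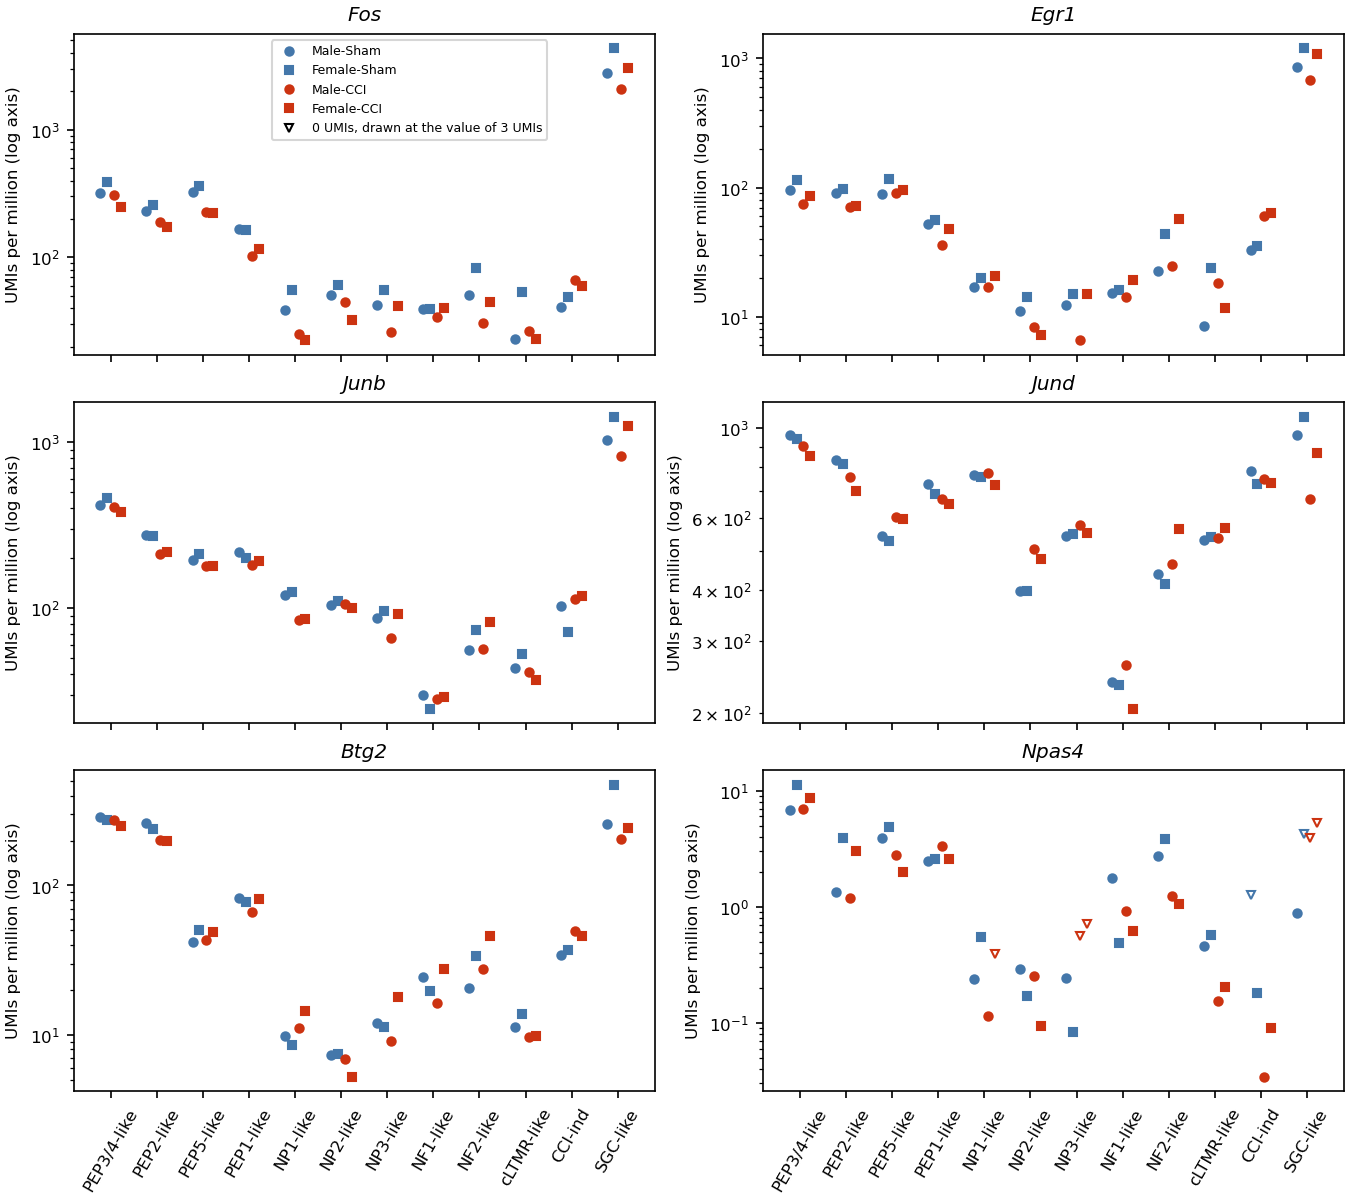
Level (CPM, log axis) of 6 genes in 10 neuron classes, the CCI-ind clusters, and SGC-like cells, with 1 point per library and open triangles where no UMI was found. PEP classes lie above NP, NF1, and cLTMR classes for *Fos*, and the steepest neuronal range is that of *Npas4*, followed by *Btg2* (252 to 289 CPM in PEP3/4-like against 5.22 to 7.47 CPM in NP2-like neurons).

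With SGC-like cells included, the 3 genes with a profile most like that of *Fos* were themselves members, and without them only the first was. Over the 48 sums of 12 classes in 4 libraries, Pearson's r of log2(CPM + 1) with *Fos* was 0.99 for *Fosb*, 0.95 for *Nr4a1*, and 0.95 for *Egr1*, ranks 1 to 3 of 8585 genes, followed by *Fam181b* at 0.95 and *Lrrtm1* at 0.94. Without SGC-like cells, over 44 sums, *Fosb* was again first at 0.97, followed by *Kcnmb2* at 0.93, *Plpp4* at 0.91, *Rxrg* at 0.90, and the heat shock gene *Dnajb1* at 0.89. Other members ranked lower. With SGC-like cells *Junb* ranked 61, *Ier2* 129, *Btg2* 339, and *Jund* 1629. Without SGC-like cells *Egr1* ranked 10, *Junb* 17, *Btg2* 35, *Ier2* 255, and *Jund* 1823. *Nr4a1* was then under the required mean of 10 CPM and was not compared. *Arc* and *Npas4* were under it in both sets. The sums share libraries, so these values are descriptions.

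Satellite glia transcripts in neurons moved with several of the genes. Among 29 neuronal clusters, 4 had *Fabp7*, an SGC transcript, in all of their cells, 1549 of 15134 neurons, and they lay in the PEP3/4-, PEP1-, PEP2-, and cLTMR-like classes. Against the other clusters of the same class, *Nr4a1* was higher in all 4 libraries in each of these clusters, by 5.51 to 7.44 times in PEP3/4-like and 4.63 to 19.8 times in cLTMR-like neurons. *Fos* was 1.26 to 2.12 times as high in the PEP3/4-like cluster and 9.71 to 12.3 times in the cLTMR-like cluster, and *Egr1* 2.02 to 3.42 and 8.14 to 16.0 times. *Btg2* was lower in all 4 libraries in the PEP3/4-like cluster, at 0.855 to 0.939 of the others, but higher in all 4 in the cLTMR-like (1.42 to 3.20 times) and PEP1-like clusters (1.17 to 1.58 times), and at 0.659 to 1.37 in the PEP2-like cluster. *Jund* in the PEP3/4-like cluster was at 0.965 to 1.03 of the others. Across the 29 clusters, which share libraries, Pearson's r was taken between the log2 levels of a gene and of the summed SGC transcripts. It was 0.89 for *Nr4a1*, 0.67 for *Egr1*, 0.62 for *Arc*, and 0.59 for both *Ier2* and *Fos*. *Fosb* had 0.48, *Junb* 0.30, *Btg2* 0.28, *Jund* 0.15, and *Npas4* 0.10. By Spearman's rank correlation *Egr1* (0.62), *Nr4a1* (0.61), *Arc* (0.60), and *Ier2* (0.59) lay close together, with *Fos* at 0.42 and the rest lower.

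**Figure D3:**
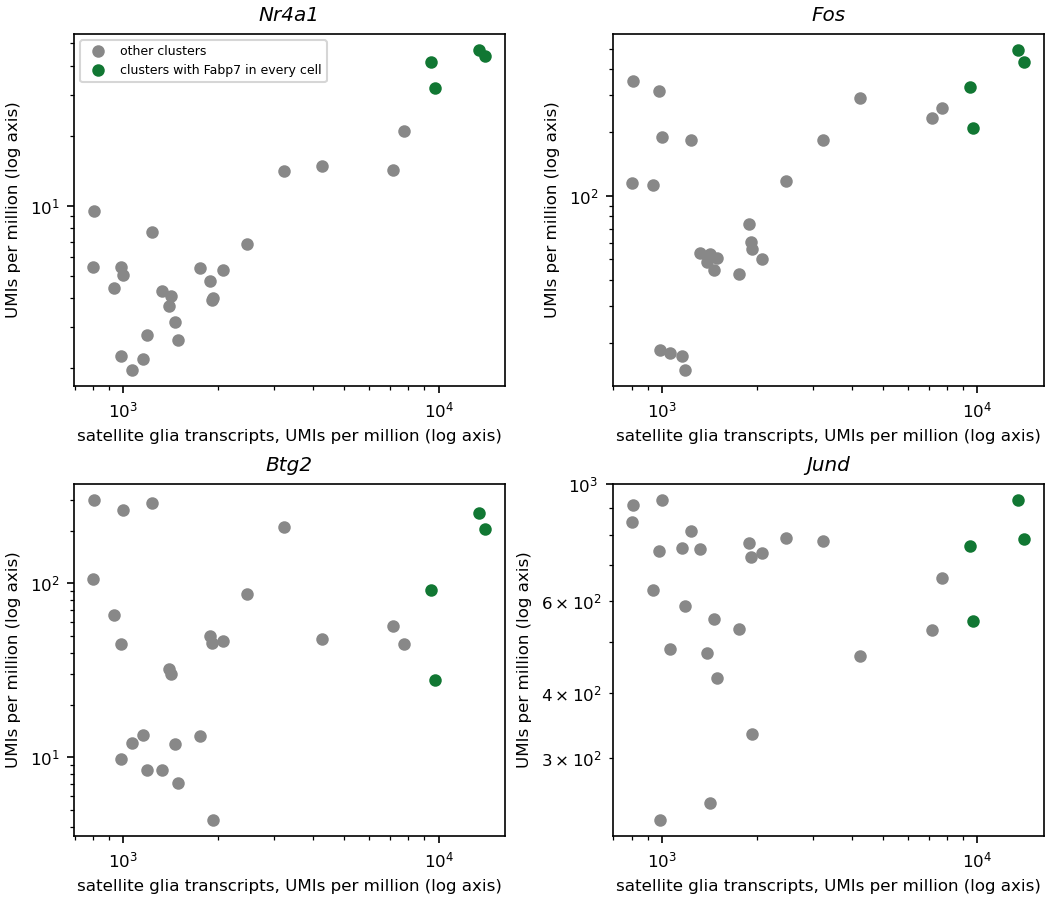
Level of 4 genes against the summed level of 10 satellite glia transcripts (both CPM, log axes) with 1 point per neuronal cluster. *Nr4a1* climbs with the glial transcripts (r = 0.89 on the log2 scale over 29 clusters), and *Btg2* and *Jund* do not line up with them (0.28 and 0.15).

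In neurons with few glial transcripts the peptidergic classes had the same order of mean *Fos* levels. Of all neurons, 11620 had under 200 CPM of *Apoe*, a lipid carrier abundant in SGCs. In these, *Fos* was at 270, 288, 292, and 207 CPM in PEP3/4-like and at 16.8, 17.5, 11.0, and 9.89 CPM in cLTMR-like neurons. *Btg2* was at 300, 277, 284, and 256 CPM in PEP3/4-like and at 6.67, 7.10, 7.13, and 4.59 CPM in NP2-like neurons. *Nr4a1* was the most reduced, at 2.18, 4.27, 1.68, and 2.06 CPM against 6.75, 14.2, 4.94, and 6.85 CPM in all neurons. The order of classes in these neurons is not given here for *Nr4a1*, *Egr1*, *Ier2*, and *Arc*.

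Across all neurons, 3 of the 10 genes were lower after CCI and none was higher. Calls required an absolute log2 fold change over 0.5 together with a Benjamini-Hochberg adjusted p under 0.05 in edgeR's quasi-likelihood test, and by that rule 27.8% of 17233 tested genes were called, so a share of 3 in 10 is near the background. *Fos* differed by a log2 fold change of -0.62 (SE 0.12, adjusted p = 0.0058), with both CCI libraries below both sham libraries at the levels given above. *Fosb* stood at 22.2, 26.6, 15.1, and 15.2 CPM, a log2 fold change of -0.63 (SE 0.092, adjusted p = 0.0016). *Npas4* had the largest of these differences, -0.98 (SE 0.21, adjusted p = 0.0078), again without overlap.

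The other genes were not called. *Junb* and *Btg2* passed the adjusted p with smaller differences, -0.30 (SE 0.073) and -0.35 (SE 0.061), and *Jund* with 0.17 (SE 0.047). *Egr1* was at 42.3, 56.2, 49.8, and 58.7 CPM and *Ier2* at 19.7, 25.4, 22.9, and 24.8 CPM, and their surgeries overlapped. *Arc* was at 1.11, 2.23, 2.44, and 2.19 CPM, with Male-Sham alone low. *Nr4a1* had a log2 fold change of -0.78 but an SE of 0.49, with Female-Sham alone high. The median over the 10 genes was -0.32 and over all genes tested -0.0061.

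Both the glial transcripts and the mix of classes moved with surgery. *Apoe* in neurons was at 962, 1211, 609, and 771 CPM, and the 10 satellite glia transcripts together at 2733, 3165, 2015, and 2258 CPM. Of these transcripts 3 of 10 were called lower and none higher, a share near the 27.8% of all genes called. In neurons under 200 CPM of *Apoe* the *Fos* difference was -0.47 and no longer called, *Fosb* (-0.53) and *Npas4* (-0.88) were called lower, and *Egr1* (0.66) and *Arc* (0.94) were called higher. With 10 named classes weighted equally, which gives values with no test, the differences were -0.50 for *Fos*, -0.50 for *Fosb*, -0.47 for *Npas4*, and -0.23 for *Egr1*. Without Female-Sham, *Fos* (-0.44) and *Fosb* (-0.50) lost the call and *Arc* (1.12) gained it, *Fos* also lost it without Male-CCI (-0.65) or Female-CCI (-0.60), and *Npas4* without Male-CCI (-0.90), each with an adjusted p above 0.05. Without Male-Sham, *Nr4a1* (-1.22) gained it.

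**Figure D4:**
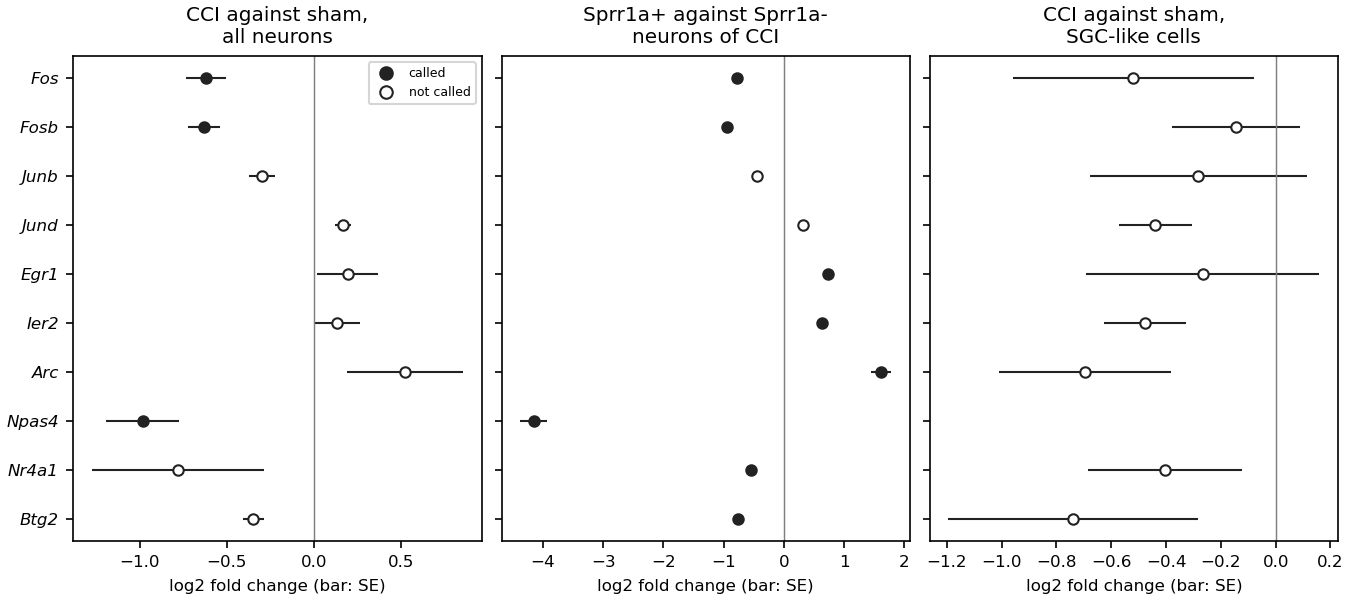
Log2 fold change with its SE for each gene in 3 comparisons, filled where called. In all neurons *Fos*, *Fosb*, and *Npas4* are called lower, within the CCI libraries *Npas4* lies far below the other genes at -4.16 in Sprr1a+ neurons and *Arc* highest at 1.62, and in SGC-like cells no gene is called and all 9 tested lie below 0. Each panel has its own horizontal scale.

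Several other rapid response genes were called higher after CCI, beside the 27.8% of all genes that were called in either direction. Of 11 tested genes in a list of other AP-1 and ATF factors, 7 were called higher in neurons after CCI and none lower, with a median log2 fold change of 0.81. The largest were *Batf3*, at 0.166, 0.132, 2.11, and 2.11 CPM, and *Fosl1*, a *Fos* relative, at 0.197, 0.296, 3.31, and 3.06 CPM. Of 18 other rapid transcription factors 10 were higher and 1, *Egr4*, lower, and of 20 feedback regulators 9 were higher and 1, *Plk2*, lower, with a median of 0.16 for the last list. The phosphatase gene *Dusp6* was at 3.25, 3.17, 8.81, and 9.20 CPM, *Dusp2* at 0.203, 0.306, 1.76, and 2.16 CPM, *Trib1* at 3.06, 3.64, 13.0, and 13.8 CPM, and *Ier5* at 2.49, 3.05, 18.5, and 20.0 CPM. *Csrnp1* (1.63) and *Egr3* (2.19) were also higher on the log2 scale.

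Effectors that follow activity were mixed, with 3 of 13 higher and 4 lower. *Vgf*, a neuropeptide precursor, was at 75.0, 78.8, 217, and 235 CPM, and *Crh*, a peptide hormone gene, had a log2 fold change of 3.52. *Nrn1*, encoding neuritin, was lower at 777, 702, 306, and 327 CPM. Of 30 upstream kinases and factors 4 were higher, among them *Elk3* (1.97) and *Mef2b* (1.50), and 1 lower, *Mef2c* (-0.99). Of 14 heat shock genes 3 were lower and none higher: *Hspa1a* at 87.6, 102, 58.0, and 64.9 CPM, *Hspa1b* at 82.6, 103, 46.9, and 51.5 CPM, and *Dnajb1* at 139, 158, 92.1, and 98.3 CPM. Their part in the differences of the immediate early genes was not tested. *Mbp* (-0.67) and *Fabp7* (-0.55) were lower with *Apoe* (-0.60), and none of 4 Schwann cell transcripts was called. Of 7 immune transcripts 1, *Csf1r* (2.55), was higher. Of 7 fibroblast and endothelial transcripts 5 were higher, led by *Flt1* (6.33), *Cdh5* (4.07), and *Col1a1* (1.79), at 2.66 CPM or less. *Flt1* was also a leading gene of the unnamed neuronal cluster led by *Ly6a*.

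In neurons without the injury marker *Sprr1a*, few of the genes differed between surgeries. Neurons were taken as Sprr1a- where the log-normalized *Sprr1a* value was not above 1, and 10 classes were compared separately. Of 90 gene and class pairs tested, 4 were called, all lower after CCI, or 4.44%. Over all genes 3.97% were called in NP1-, 4.49% in NP2-, 2.72% in NP3-, 5.3% in PEP1-, 4.52% in PEP2-, 3.49% in PEP3/4-, 3.73% in PEP5-, 1.07% in NF1-, 1.94% in NF2-, and 1.72% in cLTMR-like neurons, so the share is near the background. The 4 pairs were *Egr1* in NP2-like neurons (11.1, 14.2, 8.29, and 7.30 CPM, log2 fold change -0.71), *Fos* in PEP1-like neurons (165, 165, 104, and 118 CPM, -0.55), *Nr4a1* in PEP2-like neurons (15.9, 21.9, 12.5, and 12.4 CPM, -0.62), and *Ier2* in PEP5-like neurons (33.5, 36.8, 23.0, and 26.5 CPM, -0.54). Their adjusted p-values were 0.0036, 7.2e-04, 0.016, and 0.0078. Of 10 satellite glia transcripts 4 were called lower in NP2-like (median -0.67), 8 in PEP1-like (-1.22), 4 in PEP2-like (-0.48), and 1 in PEP5-like neurons (-0.22), and their part in these calls was not tested. In PEP1-like neurons under 200 CPM of *Apoe* the *Fos* call was lost. Over all alternative settings the log2 fold change nearest to no difference was -0.48 for *Egr1*, -0.27 for *Fos*, and -0.28 for *Nr4a1*. For *Ier2* it was -0.064, so each of the pairs fell under the size limit in some setting. Without Male-Sham many more pairs were called but fewer genes over all, so the nearness to the background depends on that library. Without Female-CCI more pairs and fewer genes were called as well. Without Male-CCI more of both were called, and without Female-Sham fewer of both. Each of these fits leaves a surgery with a single library.

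Most of the differences that were not called also lay below 0, 66 of all 90 pairs. *Fos* was below 0 in 8 of 10 classes (from -0.82 to 0.45) and *Fosb* in 9, whereas *Jund* was below 0 in 5 of 10 and *Npas4* in 3 of 6. In PEP2-, PEP3/4-, and cLTMR-like neurons every gene tested was below 0, and in NF1-like neurons 9 of 10 were above 0. Genes of a library share its cells, so these counts are not independent.

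Neurons with *Sprr1a* differed sharply from those without it in the same CCI libraries, above all in *Npas4*. The Sprr1a+ neurons, 1467 in Male-CCI and 1790 in Female-CCI, held 11 and 12 *Npas4* UMIs, or 0.125 and 0.149 CPM. The 1350 and 1848 Sprr1a- neurons held 201 and 226 UMIs, or 2.69 and 2.85 CPM, a log2 fold change of -4.16 (SE 0.23, adjusted p = 6.9e-08, edgeR with library as block). Of the 10 genes 8 were called, against 45.5% of 16242 genes tested in that comparison. *Fos* was at 67.5 and 66.8 CPM in Sprr1a+ against 135 and 125 CPM in Sprr1a- neurons (-0.78, SE 0.035), *Fosb* at 9.62 and 9.91 against 21.6 and 20.6 CPM (-0.94), *Btg2* at 46.3 and 47.8 against 86.6 and 93.5 CPM (-0.76), and *Nr4a1* at 3.67 and 5.37 against 6.43 and 8.35 CPM (-0.54). The *Nr4a1* call was lost without the library block (adjusted p = 0.061, edgeR).

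The genes that were higher in Sprr1a+ neurons were *Arc*, *Egr1*, and *Ier2*. *Arc* was at 3.60 and 3.02 against 1.07 and 1.35 CPM (log2 fold change 1.62, SE 0.17), *Egr1* at 58.6 and 69.8 against 39.5 and 47.4 CPM (0.74), and *Ier2* at 26.1 and 28.8 against 19.0 and 20.7 CPM (0.64). *Junb* (-0.45) and *Jund* (0.32) were not called for size. The fold changes are after TMM scaling, which lies 0.17 above the ratio of CPM in this comparison at the median gene and 0.057 to 0.32 above it in the comparisons by class that follow, and none of the 33 calls of members in all comparisons turned direction between the scales. Satellite glia transcripts summed to 1770 and 2163 CPM in Sprr1a+ and 2303 and 2356 CPM in Sprr1a- neurons, and their part was not tested. Among neurons under 200 CPM of *Apoe* the *Npas4* difference was -3.81, that of *Fos* -1.11, and that of *Nr4a1* -2.55.

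Within CCI, where 45.5% of all genes were called, the related lists held 8 genes called higher and 1 lower of 11 other AP-1 and ATF factors, 12 and 2 of 18 other rapid transcription factors, 9 and 3 of 20 feedback regulators, 1 and 8 of 13 effectors, 8 and 6 of 30 upstream genes, and 2 and 3 of 14 heat shock genes. In the lists for other cell types, 1 of 10 satellite glia transcripts was higher and 1 lower, and 1 of 3 Schwann cell transcripts was lower. Of 7 immune transcripts 2 were higher, and of 7 fibroblast and endothelial transcripts 6 were. *Flt1*, from the last list, was a leading gene of the unnamed neuronal cluster led by *Ly6a*.

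Sprr1a+ and Sprr1a- neurons hold different subtypes, and within a subtype only part of this remained. In PEP5-like neurons *Npas4* had 2 UMIs in Sprr1a+ and 54 in Sprr1a- neurons of CCI, a ratio of 35.6 (exact 95% interval 9.38 to 301, counting error only). In NF2-like neurons it had 5 against 14 UMIs, and in NF1-like neurons 0 against 12, at least 2.78 times lower with 3 UMIs over the group as the floor. *Fos* was called lower in NP1-like (-1.33), PEP5-like (-1.21), and NF1-like neurons (-1.65), but stood at 0.32 without a call in NF2-like neurons. *Arc* was called higher in PEP5-like (1.46) and NF2-like neurons (2.67), with 1.04 and no call in NF1-like neurons. *Egr1* was called lower in NF1-like (-0.98) and higher in NF2-like neurons (0.99), and *Btg2* was called higher in NP1-like (0.95) and NF2-like neurons (0.89), against the direction over all neurons. Of the members tested, 5 of 8 were called in NP1- and 6 of 10 in PEP5-like neurons. In NF1- and NF2-like neurons 5 of 9 and 4 of 9 were. Over all genes 2482 of 10870, 5240 of 12087, 4689 of 11033, and 3436 of 11000 were called, in that order of classes. These 4 splits were added after the data were seen.

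Within NP1- and PEP5-like neurons different clusters held the cells with and without *Sprr1a*. In the CCI libraries 199 of 205 Sprr1a+ NP1-like neurons lay in a cluster led by *Cd207*, which held 15 Sprr1a- neurons, and 51 Sprr1a- neurons lay in a cluster led by *Sst*. Of 309 Sprr1a+ PEP5-like neurons 286 lay in a cluster led by *Penk* and *Arg2*, with 74 Sprr1a- neurons, and 188 and 95 Sprr1a- neurons lay in clusters led by *Nkx6-2* and *Pnoc*. At clustering resolutions of 0.4 and 1.2 only 28 of those 309 neurons were still named PEP5-like, and 281 were unnamed, whereas all Sprr1a+ neurons of the NP1-, NF1-, and NF2-like classes kept their names. Differences within PEP5-like neurons therefore rest mostly on the naming of 1 cluster.

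**Figure D5:**
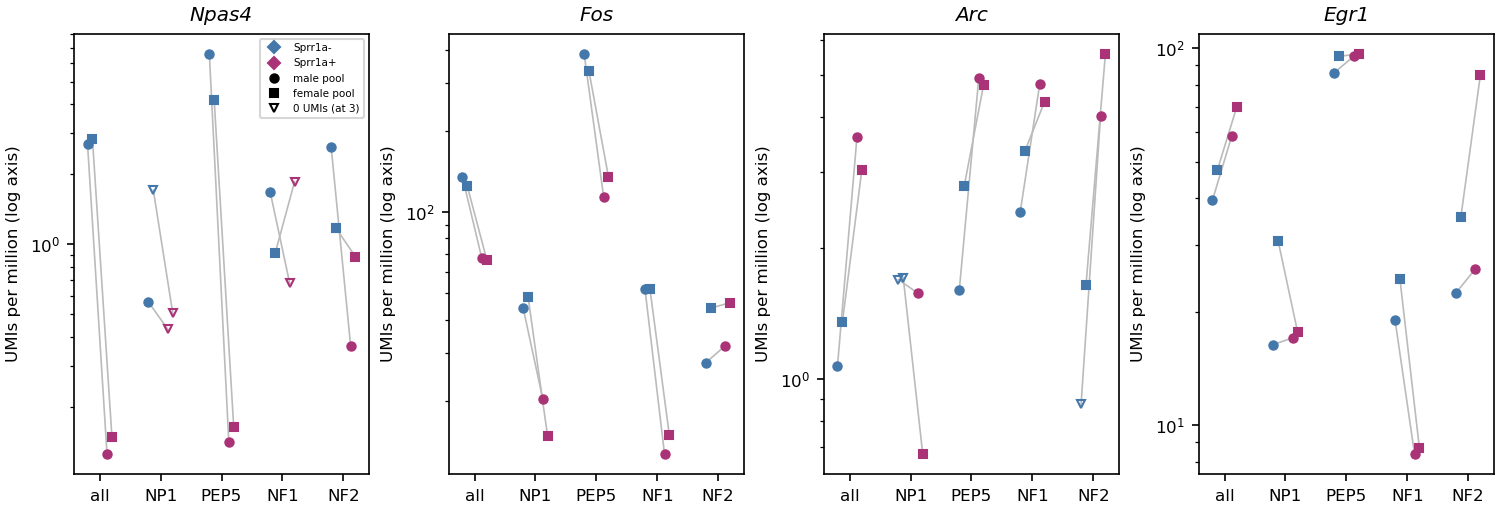
Level (CPM, log axis) of 4 genes in Sprr1a- and Sprr1a+ neurons of the CCI libraries, joined within a library, for all neurons and 4 classes, with open triangles, drawn at the level of 3 UMIs, where no UMI was found. *Npas4* drops from 2.69 and 2.85 to 0.125 and 0.149 CPM over all neurons, *Fos* drops in all classes shown but NF2, and *Egr1* moves in opposite directions in NF1 and NF2.

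Against Sprr1a- neurons of sham, the Sprr1a+ neurons of CCI gave a similar picture in the 4 classes with enough cells. Over all genes 41.1% were called in NP1-, 46.3% in PEP5-, 45.3% in NF1-, and 39.8% in NF2-like neurons, and 18 of 37 pairs of the immediate early genes were, or 48.6%, 12 lower and 6 higher. This comparison shares its Sprr1a+ neurons with the one before. *Fos* in PEP5-like neurons was at 326 and 361 CPM in sham and 114 and 135 CPM in CCI (-1.17, SE 0.087), in NF1-like neurons at 39.1 and 39.2 against 12.7 and 14.9 CPM (-1.22), and in NP1-like neurons at 41.8 and 65.5 against 20.3 and 14.8 CPM (-1.51). In NF2-like neurons it was at 51.1 and 82.5 against 32.0 and 46.2 CPM and not called. At both other resolutions *Fosb* was still called in PEP5-like neurons (-1.60), and *Fos* (-1.16, adjusted p = 0.46 by edgeR), *Npas4*, and *Nr4a1* (-1.10) were not, and *Arc* was not tested. Of 10 satellite glia transcripts 8 were called lower in PEP5-like neurons (median -0.65) and none in NP1-like neurons, and in NF1-like neurons 2 of 8 were higher and 1 lower. Of 14 heat shock genes 3 were higher and 6 lower in PEP5-like neurons. Their part in these calls was not tested.

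*Fosb* was called lower in the same classes as *Fos*, by -1.64 in PEP5-, -1.59 in NP1-, and -0.97 in NF1-like neurons. *Npas4* was called lower in PEP5-like (91 UMIs in sham and 2 in CCI) and NF2-like neurons (36 and 5 UMIs), and *Nr4a1* in PEP5-like (-1.52) and NF1-like neurons (-2.26). *Junb* was called lower in NP1-like neurons (127 and 143 against 77.5 and 76.2 CPM) and *Egr1* in NF1-like neurons (15.4 and 16.2 against 8.38 and 8.68 CPM). *Arc* was called higher in PEP5- (0.85), NF1- (1.22), and NF2-like neurons (2.45), *Btg2* in NP1- (0.70) and NF2-like neurons (0.95), and *Jund* in NF2-like neurons (0.57).

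In SGC-like cells no gene was called between surgeries, against 3.09% of 7679 genes tested by edgeR, and DESeq2 also called none of them. All 9 tested genes lay below 0, with a median log2 fold change of -0.44 against 0.0072 over all genes, and 3 had an unadjusted p below 0.05. *Jund* (-0.44, SE 0.13, adjusted p = 0.075 by edgeR) and *Ier2* (-0.48, SE 0.15, adjusted p = 0.070) came nearest, at 340, 394, 238, and 306 CPM for *Ier2*. *Fos* had a log2 fold change of -0.52 with an SE of 0.44, and *Egr1* was at 852, 1198, 680, and 1074 CPM. The female pool was above the male pool of the same surgery for all 9 genes, which adds to the spread. Within the male pools 8 of the 9 lay lower after CCI, all but *Fosb*, and within the female pools all 9 did. Without Female-CCI 7 of the genes were called lower, and without Male-Sham 3 were. Immune transcripts were highest in Male-CCI, as given above, and without cells that held at least 2 of them no member was called. Of the related lists, beside the 3.09% of all genes, 2 of 15 feedback regulators and 1 of 14 heat shock genes were called higher and 1 of 4 effectors lower.

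The levels rest on 3471, 5548, 2947, and 3749 cells kept, with 160512528 to 190200319 UMIs per library. In all neurons of a library 3 UMIs correspond to 0.0158 to 0.0188 CPM. Between 2 libraries 215 to 513 deposited barcodes were shared. Of the kept cells 330, 146, 395, and 33, in the order of libraries given above, carried a barcode found in another library, and 0 to 6 barcodes of a pair of libraries were kept in both. Without cells of a shared barcode the same number of genes, 3, was called in all neurons. On the annotation used (GENCODE, GRCm38), *Fos* lies at chr12:85473890-85477273 and *Npas4* at chr19:4984355-4990316, and *Junb* overlaps *Prdx2* and *Jund* overlaps *Gm11175* on the opposite strand.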

How the data were processed

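The deposited files hold raw UMI counts per gene and cell barcode, made by the authors with Cell Ranger from reads aligned to mm10. The version is 3.0.2 in the file headers and 2.1.1 in the submitters' processing notes. The members and gene lists were chosen with earlier results of these data known. Scrublet (scanpy 1.11.5, expected rate 0.1) scored doublets, and because its automatic threshold marked almost none, as many of the cells with the highest scores of each library were discarded as the study discarded. Cells with at least 1500 genes and at most 10% mitochondrial UMIs were kept. Seurat 5.3.0 integrated the libraries on 3000 variable genes, without the immediate early, related, and heat shock genes, and clustered 20 principal components at resolution 0.8. Clusters were named "-like" where at least 3 fixed markers were in at least 10% of cells and at least 2-fold over other cells. The minimum mean log2 fold of 1 and the pan-neuronal check that separates neurons from glia were set after the clusters were seen.

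UMIs were summed per library and class of at least 10 cells, and edgeR 4.0.16 (robust quasi-likelihood, its low-count filter, TMM) compared the sums, with p-values adjusted over all genes. Thinning drew 2000 UMIs per cell. The Sprr1a limit is 1 on the natural log scale of Seurat. The tests were tried on simulated data. All 10 members are named, from each other list the 3 largest changes called in all neurons with 1 direction in both sexes, and the 5 genes most like *Fos*, which required a mean of at least 10 CPM. One gene that this rule names is not reported here. Genes named outside this rule (*Egr4*, *Plk2*, *Tubb3*, *Pmp2*) were chosen after their values were seen. Alternatives were DESeq2 1.42.0, other filters, resolutions, doublets, a sex block, and leaving out each library. Neurons low in *Apoe*, cells without shared barcodes or immune transcripts, and single classes were added after the data were seen. Sex, the only label shared across surgeries, does not mark animals or litters, so it was not used as a pairing in the main tests. Python 3.11.15 and R 4.3.3 were used.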

Additional observations from a re-analysis of the deposited data

Results flagged for a closer look

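In Sprr1a- neurons of a class, 8 differences between surgeries had opposite signs in the male and the female pools, with at least 30 UMIs in each library and at least 0.1 on the log2 scale in each sex. Each rests on 1 library per sex and surgery, and the difference between the sexes was not tested. In cLTMR-like neurons the female minus male difference in log2 change was -2.14 for *Egr1* (1.11 in males and -1.03 in females), -1.36 for *Fos*, and -1.08 for *Ier2*. For *Btg2* it was 1.08 in NP3-like neurons, 0.94 in the NF1-like class, and 0.34 in the NF2-like class. For *Fos* in PEP5-like neurons it was -0.36 and for *Junb* in NF2-like neurons 0.25. In neurons under 200 CPM of *Apoe*, cLTMR-like neurons had *Egr1* at 6.13, 7.04, 5.61, and 5.55 CPM and *Fos* at 9.89 to 17.5 CPM, against 8.41 to 23.7 and 23.0 to 53.4 CPM in all cells of the class. The cLTMR-like cluster with *Fabp7* in all of its cells held 15 male and 109 female sham cells against 16 male and 19 female CCI cells, and its part in these differences was not tested.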

How the results depend on the processing

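The count of 3 genes called in all neurons became 1 to 4 when a library was left out, and thinning left 2714 genes called of 4798, with *Npas4* no longer among them. Of the 4 pairs in Sprr1a- neurons, there were 11 without a low-count filter, 11 with sex as a replicate block, 11 over all cells of a class, 7 without shared barcodes, and 3 to 25 when a library was left out. The 18 pairs of Sprr1a+ neurons against sham became 29 with doublets kept, where more classes could be tested, 12 of 40 with DESeq2, 13 of 27 with all variable genes in the clustering, 14 at resolution 0.4 and at 1.2, 16 without shared barcodes, 21 with sex as a replicate block, 22 without a filter, and 14 (without Female-Sham) to 17 when a library was left out. The 8 genes called within CCI became 5 of 8 tested in NP1- and 6 of 10 in PEP5-like neurons. In NF1- and NF2-like neurons they became 5 of 9 and 4 of 9, and without the library block *Nr4a1* was lost. In SGC-like cells the count of 0 became 2 without a filter, 2 with sex as a replicate block, and 0 to 7 when a library was left out, and over all genes 237 calls became 52 with DESeq2, 389 without a filter, and 400 with the block. With the block *Nr4a1* (-0.72) was added in all neurons, and *Fos* (-0.51, adjusted p = 2.8e-07 by edgeR) and *Btg2* (-0.68, adjusted p = 4.1e-05) in SGC-like cells. The sexes share a label and no animals, and a pairing cannot be checked with 2 pools per surgery. Over all genes, the 4011 calls in Sprr1a- neurons became 1795 with DESeq2, 2245 with any *Sprr1a* UMI as the limit, and 14301 over all cells of a class, and in SGC-like cells 156 were called without cells with immune transcripts and 452 without Female-CCI, while 129 of 237 were higher (54.4%) against 36.5% with DESeq2 and 64.9% without Female-Sham. Within CCI 7394 became 4782 with any *Sprr1a* UMI. They became 2482 of 10870 tested in NP1-, 5240 of 12087 in PEP5-, 4689 of 11033 in NF1-, and 3436 of 11000 in NF2-like neurons. The cause of these moves was not tested. Of 2226 alternative values of 156 differences of single genes, 126 in 69 differences had the other sign, and in 12 of them the value or its alternative was called. These 12 were *Egr1* in cLTMR-like neurons (-0.79 to 0.75 when a library was left out, the higher value without Female-Sham), *Npas4* in PEP5-like neurons over all cells (-0.73), *Btg2* in NP1- (-0.10) and *Arc* in PEP5-like neurons (-0.55) with doublets kept, and *Egr1* in NF1-like neurons with any *Sprr1a* UMI as the limit (0.18). Within CCI they were *Egr1* (-0.36), *Ier2* (-0.65), and *Btg2* (0.95) in NP1-like, *Egr1* (-0.98) and *Ier2* (-0.89) in NF1-like, and *Fos* (0.32) and *Btg2* (0.89) in NF2-like neurons. With 2 pools per surgery, small differences of scarce genes were not detectable.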

Other observations

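Barcodes left out for holding under 1500 genes, 3966 in all, carried *Fos* and *Nr4a1* at levels between those of neurons and SGC-like cells in each library, while *Jund*, at 429 to 491 CPM, was below both. *Fos* was at 584, 1243, 384, and 350 CPM there, *Nr4a1* at 46.8, 130, 71.5, and 42.9 CPM, and *Npas4* at 3.34, 3.93, 1.79, and 3.26 CPM, from 18 UMIs in all. The same barcodes held *Apoe* at 11199, 32763, 15448, and 9478 CPM and the neuronal *Tubb3* at 1798, 1298, 1633, and 2865 CPM. Female-Sham was highest for both *Fos* and *Apoe*.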
